A study of Mus musculus with 44 samples.

Results

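The lysosome of the macrophage is described here through 44 genes: hydrolases other than the cathepsins, their activator proteins, proteins of the lysosomal membrane, subunits of the proton pump, the MiT transcription factors and their target Gpnmb. The genes were chosen by name, with earlier results of these data known. Counts of calls among them therefore describe the set and do not test it. Of the 44, 43 were found by symbol among the 46078 genes of the count table, and Galns was not analysed here. All 43 passed the filter on low counts, which left 14537 genes to be tested.

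Lysosomes are acidic compartments in which ingested particles, dead cells, lipoproteins and worn-out organelles are broken down. A proton pump, the V-ATPase, keeps the lumen acidic, hydrolases split the macromolecules, and membrane transporters carry the products back to the cytosol. Many of these genes carry a short E-box-like sequence near their start site, which is bound by the MiT factors Tfeb, Tfe3 and Mitf. The kinase mTORC1 holds these factors in the cytosol while nutrients are plentiful, and starvation or lysosomal stress releases them to the nucleus, a step that RNA levels do not show. Macrophages depend on this system more than most cells because they digest what they engulf.

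Macrophages were elicited in C57BL/6 mice with thioglycolate and taken from the peritoneal cavity 4 days later. Cells that had adhered were cultured in DMEM with fetal bovine serum and either left without stimulus (control) or given a cell extract of H9c2 cells (a line derived from rat heart; 10 µg/mL), LPS (lipopolysaccharide of bacterial walls, the usual agent of classical activation; 100 ng/mL) or IL-4 (interleukin 4, a cytokine of alternative activation; 10 ng/mL) for 8, 24 or 72 h. All cultures shared 1 isolate pooled from multiple animals, so p-values measure the spread between cultures and not between mice. Of the 12 groups, 4 had 3 cultures (those with cell extract at 24 h, and those with cell extract, IL-4 or no stimulus at 72 h), and the others had 4, for 44 libraries in all. Values below are counts per M (CPM, TMM-scaled), given per culture in order of replicate number or as mean ± SD, and n is 3 or 4 as just listed. A gene is said to rise or fall, or to be called, where edgeR's quasi-likelihood test gave an adjusted p under 0.05 over all 14537 genes.

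The depth of the libraries was 0.908 to 26.6 M of reads assigned to genes (median 8.61 M). The shallowest library, IL-4 at 24 h replicate 1, stood apart from the other 3 of its group in several genes below, and calls that rest on it are also given without it. Nos2, the inducible nitric oxide synthase, averaged 654, 586 and 574 CPM with LPS at 8, 24 and 72 h, against 8.97, 2.81 and 5.17 in the controls. Within control at 8 h, replicate 1 held 24.4 CPM of Nos2 and the other cultures 2.93 to 5.12. Arg1, the arginase of alternative activation, averaged 1466, 1500.4 and 2011 CPM with IL-4 against 16.6, 21.2 and 201. Macrophage markers were present in every library (Lyz2 from 5065 to 27138 CPM). In 7 libraries, all numbered replicate 3 and none of them given IL-4, Lars2 held 17848 to 44443 CPM against 109 to 8744 in the others, and calls that end without them are named beside the result. Markers of B cells, T cells, mast cells and dendritic cells (3 each) summed to at most 24.3 CPM in any library. In these bulk cultures, fewer cells of a type and less RNA per cell cannot be told apart.

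The letters CACGTG, the core of the E-box that MiT factors recognise, were searched on both strands in RefSeq promoter windows (GRCm38.p6) from 250 bases before to 50 bases after each annotated start. A window was found for 38 of the 43 genes, and 9 of these 38 (23.7%) held CACGTG: Lamp1, Mcoln1, Gla, Glb1, Arsa, Naglu, Gaa, Lgmn and Atp6v1a. Counted the same way, by gene, 8.09% of the 27025 genes with a window held it. Each of the 9 also held the longer form TCACGTG or its reverse complement CACGTGA, which contains CACGTG and occurred in 4.29% of all genes. The 10-base palindrome known as the CLEAR element was in none of the 38 and in 0.37% of all genes. TCATGTG or CACATGA, the M-box type of site, was in 6 of the 38 (Scarb2, Gla, Tpp1, Ppt1, Grn and Acp5) and in 4.31% of all genes. The stretches of 6 of the 9 genes with CACGTG are shown 5′ to 3′ on the gene's own strand because they carry the letters by which MiT targets are usually recognised. Capitals mark TCACGTG or CACGTGA. Mcoln1, Arsa and Naglu carry these letters too and are not shown. Their stretches share 43, 1 and 35 bases with an exon of their own gene.

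Lamp1: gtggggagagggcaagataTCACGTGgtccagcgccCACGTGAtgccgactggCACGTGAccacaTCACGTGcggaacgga
Gla: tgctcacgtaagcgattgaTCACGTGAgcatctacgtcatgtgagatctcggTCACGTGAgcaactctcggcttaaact
Glb1: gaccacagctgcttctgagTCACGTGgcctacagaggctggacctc
Gaa: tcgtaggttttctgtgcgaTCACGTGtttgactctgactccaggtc
Lgmn: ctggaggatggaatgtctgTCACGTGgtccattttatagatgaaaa
Atp6v1a: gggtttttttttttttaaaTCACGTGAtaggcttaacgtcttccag

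The Lamp1 stretch lies at chr8:13159080-13159160 (+ strand) directly before the gene's first annotated base and holds CACGTG 4 times, which no other member window did. The Gla stretch, at chrX:134601174-134601252 (- strand), holds it 2 times. The others hold it once and lie at chr9:114401010-114401055 (+ strand), chr11:119267803-119267848 (+ strand), chr12:102439116-102439161 (- strand) and chr16:44139365-44139410 (- strand), in the order shown. None of the 6 stretches overlaps an exon of its own gene in GENCODE M21. Those of Lgmn and Atp6v1a nonetheless lie within the annotated gene (chr12:102394084-102439813 and chr16:44085402-44139705), and the other stretches lie before it. A match of letters is a description of the window and not a bound site. Of the 9 genes with CACGTG 0 rose and 7 fell with cell extract at 8 h against 4 and 19 of the 29 whose windows lacked it, and 0 rose and 6 fell with LPS at 8 h against 5 and 15. At 72 h with cell extract 3 of the 9 rose and 2 fell, against 6 and 8 of the 29. Of all genes tested, 13.0% were called higher and 17.2% lower with cell extract at 8 h, 21.3% and 24.1% with LPS at 8 h, and 14.2% and 12.2% with cell extract at 72 h.

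Per kilobase of exon, the most abundant members in control cultures at 8 h were Psap (5164 ± 801 CPM per kb), the precursor of the saposins that present sphingolipids to their hydrolases, and Gpnmb (2853 ± 406 CPM per kb), a membrane glycoprotein of lipid-loaded macrophages. Lamp1, the main glycoprotein of the lysosomal membrane, followed at 1302 ± 70.2 CPM per kb, then Hexa, the alpha subunit of beta-hexosaminidase, at 689 ± 109.5 and the pump subunit Atp6v0d2 at 612 ± 26.5. The levels of Hexa and Atp6v0d2 lay within 1 SD of each other. The factors themselves were scarce, with Mitf at 16.4 ± 2.25, Tfeb at 8.01 ± 1.86 and Tfe3 at 5.99 ± 0.369 CPM per kb. Arsb, the arylsulfatase of dermatan sulfate breakdown, was lowest at 1.28 ± 0.564. Of the genes described in most detail below, Acp5 lies at chr9:22126727-22135711, Galc at chr12:98202294-98259459, Lipa at chr19:34492318-34527474, Lgmn at chr12:102394084-102439813, Tfeb at chr17:47737030-47792419 and Atp6v0d2 at chr4:19876841-19922605 in GRCm38 (GENCODE M21).

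Together the 43 genes summed to 5.71% ± 0.589 of the TMM-scaled library size in control cultures at 8 h, 6.25% ± 0.471 at 24 h and 4.23% ± 0.274 at 72 h. That size is the library's counts times its TMM factor, so the value is not a share of counts. At 8 h the factor was 0.964 to 1.11 in control, 0.907 to 1.06 with cell extract and 0.728 to 0.842 with LPS. Groups with unlike factors can rank otherwise as shares of counts, which were not computed. With cell extract their scaled sum was 3.68% ± 0.179, 3.62% ± 0.128 and 4.5% ± 0.283, and with LPS it was 4.45% ± 0.222, 3.62% ± 0.121 and 2.57% ± 0.379. The scaled sum with IL-4 was 5.53% ± 0.468, 5.3% ± 0.506 and 5.14% ± 0.254. The cell extract cultures lay below every control culture at 8 and 24 h and overlapped the control cultures at 72 h, while the LPS cultures lay below every control culture at all 3 times. Psap and Gpnmb made up most of the sum in control. Without them the other 41 genes summed to 2.43% ± 0.112, 1.67% ± 0.0408, 2.06% ± 0.122 and 2.44% ± 0.116 of the scaled library size at 8 h in control, cell extract, LPS and IL-4, and 2.02% ± 0.0273, 1.86% ± 0.0785, 1.44% ± 0.134 and 2.33% ± 0.276 at 72 h.

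**Figure D1:**
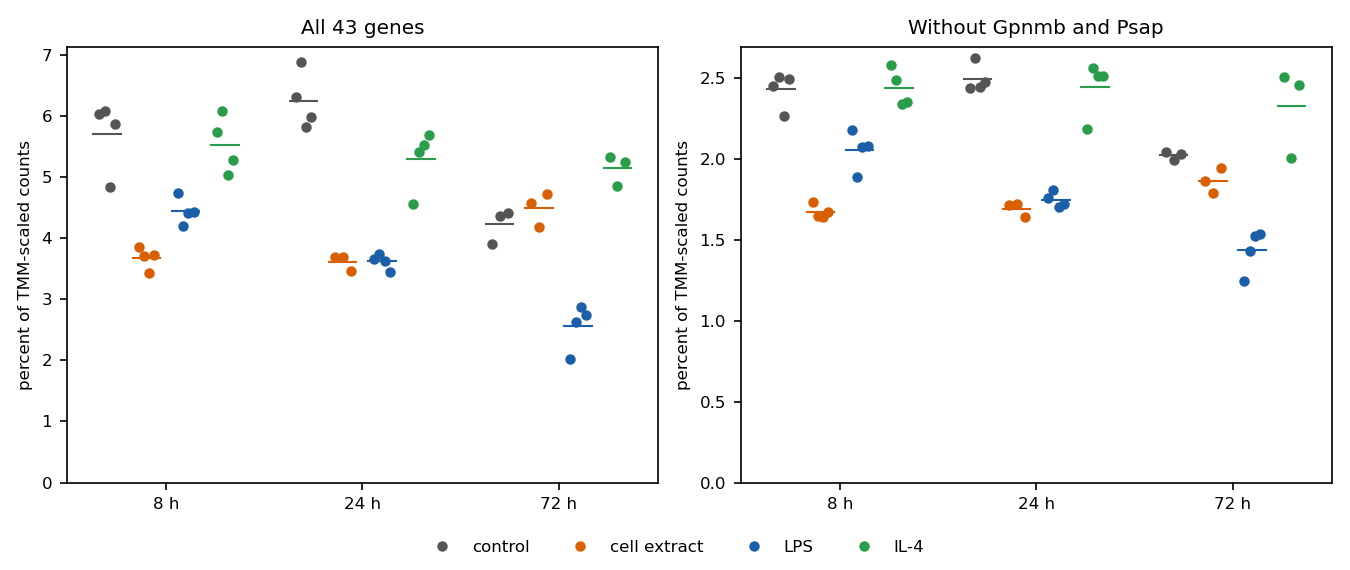
Sum of the 43 genes as percent of the TMM-scaled library size, with 1 point per culture and a bar at the group mean, for all 43 genes (left) and without Gpnmb and Psap (right). With cell extract and LPS the left panel sits near 3.62% at 24 h against 6.25% in control, and at 72 h LPS lies at 2.57% while cell extract and control lie at 4.5% and 4.23%.

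Against control at the same time, many lysosomal genes fell early with cell extract and with LPS, and few were called with IL-4. At 8 h, 5 of the 43 rose and 28 fell with cell extract, where 13.0% and 17.2% of all tested genes did, and the median log2 change was -0.49 over the 43 against -0.06 over all genes. With LPS at 8 h, 6 of the 43 rose and 24 fell again, where 21.3% and 24.1% of all tested genes did, and the median log2 change was -0.41 over the 43 against 0.00 over all genes. With IL-4 at 8 h 1 gene rose and 0 fell (4.29% and 4.04% of all genes; medians -0.02 and -0.04). Without control replicate 1, which stood apart in Nos2, 3 rose and 25 fell with cell extract and 5 and 19 with LPS. At 24 h falls again outnumbered rises with both stimuli. With cell extract 2 rose and 21 fell (11.7% and 10.4% of all genes; medians -0.41 and -0.06), with LPS 4 rose and 24 fell (18.6% and 19.3%; medians -0.53 and -0.07), and with IL-4 2 rose and 2 fell (4.74% and 4.76%; medians -0.12 and -0.03), of which 1 call was left with no filter on low counts and 1 in a fit restricted to the groups compared. At 72 h the conditions had parted. With cell extract 11 rose and 11 fell (14.2% and 12.2% of all genes; medians 0.04 and 0.00), with LPS 5 rose and 17 fell (16.1% and 15.4%; medians -0.33 and 0.05), and with IL-4 9 rose and 5 fell (13.2% and 10.5%; medians 0.17 and 0.00). In all, 177 calls were made over the 43 genes and 9 comparisons, of which 130 held when each culture was left out in turn and 107 held under every alternative tried. At 72 h with cell extract only 3 rises and 3 falls held under every alternative, and without the Lars2-rich libraries, which leaves 2 cultures a group there, 5 rose and 4 fell, while 13 were called with no filter on low counts. The 3 stimuli share the control cultures of each time.

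**Figure D2:**
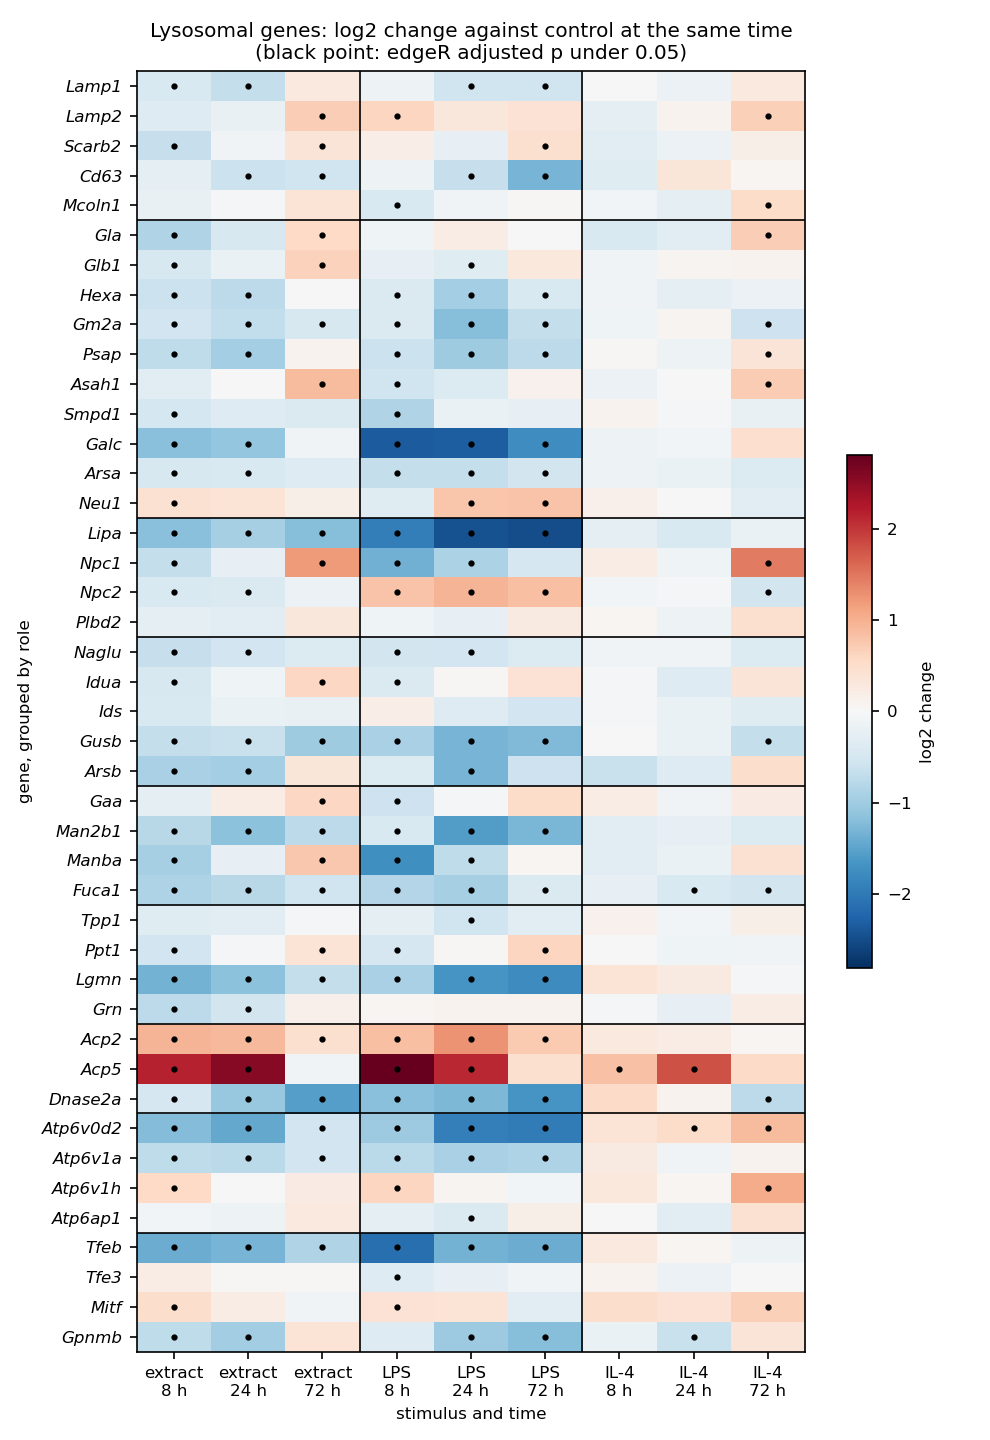
Fitted log2 change of the 43 genes (rows, ordered by role) in the 9 comparisons of a stimulus with control at the same time (columns); a black point marks an edgeR adjusted p under 0.05. The cell extract and LPS columns at 8 and 24 h are mostly below 0 with Acp2 and Acp5 above it, and the cell extract column at 72 h holds 11 rises and 11 falls.

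Among proteins of the lysosomal membrane, Lamp1 fell with cell extract at 24 h and with LPS at 24 and 72 h. Control cultures at 24 h held 3291, 4221, 3568 and 3731 CPM of Lamp1, cell extract cultures 2471, 2352 and 2213 and LPS cultures 2478, 2656, 2478 and 2523. Neither stimulus overlapped control, and Lamp1 was 1.58-fold lower (edgeR adjusted p 3.18e-05) with cell extract and 1.46-fold lower (edgeR adjusted p 7.09e-05) with LPS. At 72 h LPS cultures (1933 ± 286) again lay below control (2858 ± 150.2) and were 1.48-fold lower (edgeR adjusted p 1.68e-04). The Lamp1 call with cell extract at 8 h (-0.42 log2, edgeR adjusted p 0.00239) ended with no filter on low counts or without the Lars2-rich libraries (adjusted p 0.0961 to 0.347), and those at 24 and 72 h ended with no filter on low counts (edgeR adjusted p 0.0924, 0.0531 and 0.14 in the order given). Scarb2, which carries glucocerebrosidase to the lysosome, was 1.57-fold lower (edgeR adjusted p 2.76e-05) with cell extract at 8 h (137 ± 2.89 against 215 ± 15.6 CPM). Cd63, a tetraspanin of late endosomes, was 2.45-fold lower (edgeR adjusted p 2.61e-07) with LPS at 72 h (750.5 ± 188 against 1838 ± 497 CPM). Lamp2, which serves chaperone-mediated autophagy as well as membrane integrity, was 1.51-fold higher (edgeR adjusted p 0.00421) with LPS at 8 h, a call that ended with no filter on low counts (adjusted p 0.0597). Mcoln1, the calcium channel of the lysosomal membrane, was not called with cell extract at any time. Of this role's calls against control, 2 of the 16 held under every alternative.

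Enzymes and activators of sphingolipid breakdown made up the largest role. At 8 h 8 of the 10 fell with cell extract and 7 with LPS, where 17.2% and 24.1% of all tested genes did. Of this role's calls against control, 25 of the 42 held under every alternative. Galc, the galactocerebrosidase that is lost in Krabbe disease, had the largest fold of the role. Its level was 233, 264, 202 and 248 CPM in control cultures at 8 h, 108, 103, 104 and 107 with cell extract and 56.1, 43.5, 47.2 and 41.2 with LPS. No culture of either stimulus reached the lowest control. Galc was 2.25-fold lower (log2 change -1.17 ± 0.20, SE; edgeR adjusted p 1.08e-05) with cell extract and 5.05-fold lower (log2 change -2.34 ± 0.21, SE; edgeR adjusted p 2.34e-12) with LPS. With LPS it was 4.93-fold lower (edgeR adjusted p 3.97e-12) at 24 h and 3.32-fold lower (edgeR adjusted p 3.03e-08) at 72 h (54.2 ± 7.26 against 182 ± 21 CPM). With cell extract Galc was still 2.12-fold lower (edgeR adjusted p 1.66e-04) at 24 h, and at 72 h (169 ± 15 CPM) it was not called (log2 -0.10 ± 0.23, SE; edgeR adjusted p 0.798). These 5 Galc calls held under every alternative.

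Gm2a, the activator that lifts ganglioside GM2 for hexosaminidase, fell at all 3 times with cell extract and with LPS. With no filter on low counts the calls ended at 8 h with cell extract (adjusted p 0.0567) and LPS (0.0502) and at 72 h with cell extract (0.412), and the last also ended without the Lars2-rich libraries (0.0624). At 24 h control cultures held 418, 419, 376 and 406 CPM, cell extract cultures 244, 249 and 256 and LPS cultures 179, 183, 173 and 175. The 3 groups did not overlap one another, and Gm2a was 1.62-fold lower (edgeR adjusted p 1.40e-05) with cell extract and 2.28-fold lower (edgeR adjusted p 8.30e-12) with LPS. Psap fell with both stimuli at 8 h (1.62-fold lower, edgeR adjusted p 5.71e-06, and 1.51-fold lower, edgeR adjusted p 3.64e-05) and at 24 h (1.92-fold lower, edgeR adjusted p 1.59e-07, and 1.98-fold lower, edgeR adjusted p 3.18e-09), and with LPS also at 72 h (1.65-fold lower, edgeR adjusted p 9.07e-06). Hexa was 1.65-fold lower (edgeR adjusted p 5.89e-04) with cell extract and 1.93-fold lower (edgeR adjusted p 1.27e-06) with LPS at 24 h. Arsa, the arylsulfatase of sulfatide breakdown, was 1.58-fold lower (edgeR adjusted p 4.04e-05) with LPS at 8 h and 1.6-fold lower (edgeR adjusted p 3.32e-05) at 24 h, and 18.8% of its exon bases overlap an antisense gene whose reads cannot be told apart here. Smpd1, acid sphingomyelinase, was 1.79-fold lower (edgeR adjusted p 1.62e-05) with LPS at 8 h.

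Neu1, the sialidase of glycolipids and glycoproteins, went the other way with LPS at 24 and 72 h and with cell extract at 8 h. The extract rise at 8 h (192 ± 13.5 against 143 ± 8.8 CPM) did not hold under every alternative. With LPS at 8 h Neu1 was lower (113 ± 17 CPM) than in control. That fall was not called in the main fit and was called with the replicate block. LPS cultures held 237, 208, 185 and 216 CPM at 24 h and control cultures 143, 119.8, 116 and 118, and at 72 h LPS cultures held 339, 268, 236 and 242 and control cultures 153, 138 and 176. The groups did not overlap at either time, and Neu1 was 1.7-fold higher (edgeR adjusted p 9.38e-05) at 24 h and 1.74-fold higher (edgeR adjusted p 2.98e-04) at 72 h. Asah1, acid ceramidase, rose with cell extract at 72 h, where the extract cultures held 931, 862 and 967 CPM against 516, 512 and 474 in control (1.84-fold higher, log2 change 0.88 ± 0.24, SE; edgeR adjusted p 0.00485). Gla, the alpha-galactosidase lost in Fabry disease, was 1.79-fold lower (edgeR adjusted p 4.28e-05) with cell extract at 8 h, and Glb1, the beta-galactosidase of gangliosides, was 1.56-fold higher (edgeR adjusted p 5.86e-04) at 72 h.

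Sterol handling split between its own members. Lipa, the acid lipase that frees cholesterol and fatty acids from lipoprotein esters, fell at every time with both stimuli. At 8 h its level was 2285, 2613, 2336 and 2261 CPM in control, 1065, 960.2, 1109.9 and 1072 with cell extract and 669, 596, 671 and 541 with LPS. At 72 h it was 2089, 1786 and 1626 in control, 852, 751 and 787 with cell extract and 271, 283, 419 and 341 with LPS. The 3 groups were separate at both times, with LPS lowest. The fall with cell extract was 2.26-fold, 1.89-fold and 2.3-fold at 8, 24 and 72 h (edgeR adjusted p 2.37e-06, 4.76e-04 and 3.68e-05). With LPS it was 3.83-fold, 5.45-fold and 5.58-fold (edgeR adjusted p 2.00e-11, 7.69e-14 and 4.12e-13). All 6 Lipa calls held under every alternative.

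Npc1 and Npc2, which together pass cholesterol out of the lysosome, did not move alike. Npc2, the soluble carrier, rose with LPS at each time. Control cultures held 1601, 1398, 1441 and 1655 CPM at 8 h and LPS cultures 2779, 2314, 2532 and 2933, and Npc2 was 1.73-fold higher (log2 change 0.79 ± 0.11, SE; edgeR adjusted p 8.46e-08) at 8 h, 1.93-fold higher (edgeR adjusted p 2.40e-09) at 24 h and 1.79-fold higher (edgeR adjusted p 3.25e-07) at 72 h. It was below control with cell extract at 8 h (-0.43 log2, edgeR adjusted p 0.00194), a call that ended with no filter on low counts or without the Lars2-rich libraries (adjusted p 0.081 to 0.291). Npc1, the membrane exporter, was 2.52-fold lower (edgeR adjusted p 9.29e-06) with LPS at 8 h (133, 134, 128 and 84.7 against 324, 379, 243 and 264 CPM) and 1.84-fold lower (edgeR adjusted p 0.00229) at 24 h. At 72 h cell extract cultures held 362, 331 and 386 CPM, IL-4 cultures 461, 386 and 455 and control cultures 162, 171 and 139. Both stimuli lay above every control culture, and Npc1 was 2.28-fold higher (edgeR adjusted p 0.00104) with cell extract and 2.76-fold higher (edgeR adjusted p 1.13e-04) with IL-4. Npc1 with cell extract at 8 h stood below control (-0.68 log2, edgeR adjusted p 0.024), which ended without the Lars2-rich libraries or without cell extract 8 h replicate 2 or 3 or control 8 h replicate 1 or 2 (adjusted p 0.0534 to 0.124). Plbd2, a phospholipase B-like protein, was not called against control in any comparison.

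Of the glycosaminoglycan hydrolases, Gusb, the beta-glucuronidase, was 1.59-fold lower (edgeR adjusted p 2.65e-06) with cell extract and 1.87-fold lower (edgeR adjusted p 2.38e-09) with LPS at 8 h. At 72 h control cultures held 639.9, 621 and 709.6 CPM, cell extract cultures 325, 327 and 343 and LPS cultures 232, 279.6, 300.1 and 304. Every stimulated culture lay below every control culture, and Gusb was 1.98-fold lower (log2 change -0.98 ± 0.12, SE; edgeR adjusted p 6.84e-08) with cell extract and 2.35-fold lower (log2 change -1.23 ± 0.11, SE; edgeR adjusted p 1.36e-11) with LPS. With LPS at 24 h Gusb was 2.48-fold lower (edgeR adjusted p 2.47e-13). Naglu, which removes N-acetylglucosamine from heparan sulfate, was 1.58-fold lower (edgeR adjusted p 5.17e-04) with cell extract and 1.42-fold lower (edgeR adjusted p 0.00441) with LPS at 8 h. Arsb was 2.46-fold lower (edgeR adjusted p 0.00172) with LPS at 24 h (4.39 ± 1.01 against 10.8 ± 2.43 CPM), with 39.9% of its exon bases shared with antisense genes. Ids, the iduronate sulfatase, was not called against control in any comparison, and Idua, the iduronidase, had no call against control that held under every alternative.

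In the role of glycogen and glycoprotein sugars, Man2b1, the alpha-mannosidase, fell with both stimuli at 24 h. Control cultures held 395, 522, 426 and 433 CPM, cell extract cultures 194, 213 and 189 and LPS cultures 159.7, 173, 145 and 127. The stimulated cultures were all below control, and Man2b1 was 2.23-fold lower (log2 change -1.16 ± 0.19, SE; edgeR adjusted p 8.78e-06) with cell extract and 2.94-fold lower (log2 change -1.56 ± 0.18, SE; edgeR adjusted p 1.61e-09) with LPS. With LPS at 72 h it was 2.41-fold lower (edgeR adjusted p 7.49e-07). Manba, the beta-mannosidase, fell with both at 8 h, when its levels were 51.3, 58.4, 40.4 and 50.6 CPM in control, 25.4, 25.4, 27.8 and 27.4 with cell extract and 14.7, 17, 15.2 and 14.3 with LPS. No stimulated culture reached the lowest control, and Manba was 1.9-fold lower (edgeR adjusted p 0.00196) and 3.28-fold lower (edgeR adjusted p 2.49e-07). At 72 h with LPS it was not called (log2 0.06 ± 0.27, SE; edgeR adjusted p 0.903), and its rise with cell extract there (log2 0.75, edgeR adjusted p 0.0466) ended with the replicate block, with RLE size factors, without the Lars2-rich libraries or without cell extract 72 h replicate 2 or 4 or control 72 h replicate 1, 3 or 4 (adjusted p 0.0532 to 0.165). Fuca1, the alpha-fucosidase, held 166, 145, 147 and 164 CPM in control at 8 h, 84.8, 85.8, 83.6 and 88.1 with cell extract and 102, 74.1, 86.6 and 91.4 with LPS. All stimulated cultures lay below control, and Fuca1 was 1.82-fold lower (edgeR adjusted p 2.53e-07) and 1.76-fold lower (edgeR adjusted p 3.50e-07). The falls at 24 h were 1.72-fold (edgeR adjusted p 8.85e-06) and 1.9-fold (edgeR adjusted p 3.37e-08). Gaa, the acid alpha-glucosidase of glycogen, had no call against control that held under every alternative.

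Lgmn, the asparaginyl endopeptidase that cuts antigens and cathepsin precursors, fell with both stimuli at every time. It held 1298, 1293, 1086 and 1427 CPM in control at 8 h, 522, 541, 488 and 488 with cell extract and 716, 627, 654 and 737 with LPS. At 72 h control cultures held 938, 1157 and 1040.4, cell extract cultures 699, 604 and 671 and LPS cultures 230.4, 319, 344 and 345. All stimulated cultures lay below control, those with cell extract lowest at 8 h and those with LPS lowest at 72 h. With cell extract Lgmn was 2.5-fold lower (log2 change -1.32 ± 0.15, SE; edgeR adjusted p 1.22e-09) at 8 h and 2.2-fold lower (edgeR adjusted p 3.11e-07) at 24 h. The extract call at 72 h (-0.67 log2, edgeR adjusted p 0.00237) ended with no filter on low counts or without the Lars2-rich libraries (adjusted p 0.101 to 0.114). With LPS it was 1.87-fold lower (edgeR adjusted p 1.54e-06), 3.16-fold lower (edgeR adjusted p 2.05e-12) and 3.36-fold lower (edgeR adjusted p 4.53e-12) at the 3 times. Grn, the progranulin that is cleaved in lysosomes, was 1.67-fold lower (edgeR adjusted p 3.87e-05) with cell extract at 8 h and was not called with LPS at any time. Ppt1, the palmitoyl-protein thioesterase, fell with both stimuli at 8 h (1.45-fold lower, edgeR adjusted p 9.08e-06, and 1.38-fold lower, edgeR adjusted p 4.29e-05) and was 1.51-fold higher (edgeR adjusted p 8.23e-06) with LPS at 72 h. Tpp1, the tripeptidyl peptidase, was 1.46-fold lower (edgeR adjusted p 9.29e-04) with LPS at 24 h and not called with cell extract.

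The acid phosphatases rose where most of the other genes fell. Acp5, the tartrate-resistant phosphatase known from osteoclasts, held 116, 78.6, 79 and 89.1 CPM in control cultures at 8 h, 450.1, 370.0, 368 and 439.6 with cell extract, 674, 595, 595 and 655 with LPS and 185, 181, 125 and 152 with IL-4. Every stimulated culture exceeded every control culture. The rise was 4.48-fold (log2 change 2.16 ± 0.20, SE; edgeR adjusted p 1.69e-11) with cell extract, 6.94-fold (log2 change 2.79 ± 0.21, SE; edgeR adjusted p 8.21e-15) with LPS and 1.77-fold (log2 change 0.83 ± 0.20, SE; edgeR adjusted p 0.00381) with IL-4. At 24 h it was 5.82-fold with cell extract, 4.35-fold with LPS and 3.44-fold with IL-4 (edgeR adjusted p 1.46e-12, 1.42e-11 and 1.86e-08). Acp5 was the only member that rose with all 3 stimuli at the same time, at 8 and at 24 h. At 72 h it was called with none of them: control cultures held 126, 172 and 197 CPM, cell extract cultures 136, 165 and 157, LPS cultures 258, 181, 227 and 240.1 and IL-4 cultures 273, 176 and 264.

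Acp2, the ubiquitous lysosomal acid phosphatase, held 143, 147, 126 and 140.0 CPM in control at 8 h, 283, 252, 262 and 281 with cell extract and 260.2, 235, 251 and 242 with LPS. The groups did not overlap, and Acp2 was 1.94-fold higher (log2 change 0.96 ± 0.10, SE; edgeR adjusted p 8.79e-10) and 1.78-fold higher (log2 change 0.83 ± 0.10, SE; edgeR adjusted p 8.86e-09). It was 1.87-fold higher (edgeR adjusted p 1.89e-08) and 2.38-fold higher (edgeR adjusted p 4.57e-13) at 24 h and 1.67-fold higher (edgeR adjusted p 1.73e-06) with LPS at 72 h. Ddb2 overlaps 12.6% of its exon bases from the opposite strand. Dnase2a, the acid nuclease that degrades DNA of engulfed nuclei, fell instead. At 72 h it held 352, 289 and 384 CPM in control, 123, 115 and 115 with cell extract, 112, 108, 105 and 108 with LPS and 219, 166 and 228 with IL-4. All stimulated cultures lay below control. Dnase2a was 2.9-fold lower (log2 change -1.54 ± 0.21, SE; edgeR adjusted p 2.96e-07) with cell extract, 3.16-fold lower (log2 change -1.66 ± 0.19, SE; edgeR adjusted p 3.21e-09) with LPS and 1.67-fold lower (log2 change -0.74 ± 0.20, SE; edgeR adjusted p 0.00653) with IL-4. The IL-4 call ended without IL-4 72 h replicate 3 (adjusted p 0.0547), and the other calls at 72 h held. With LPS Dnase2a was also 2.23-fold lower (edgeR adjusted p 6.55e-07) at 8 h and 2.39-fold lower (edgeR adjusted p 1.92e-07) at 24 h, and with cell extract 2.09-fold lower (edgeR adjusted p 3.47e-05) at 24 h. Of its exon bases 30.0% are shared with Mast1 on the opposite strand.

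In the proton pump, Atp6v0d2, the d2 subunit of the membrane sector that macrophages and osteoclasts favour, fell with cell extract and LPS and rose with IL-4. At 24 h control cultures held 1459.8, 1821, 1792 and 1813 CPM, cell extract cultures 669, 651 and 581, LPS cultures 369, 455, 581 and 423 and IL-4 cultures 2216, 2582, 2515 and 2503. Cell extract and LPS lay below all controls and IL-4 above them. It was 2.72-fold lower (log2 change -1.44 ± 0.14, SE; edgeR adjusted p 1.19e-10) with cell extract and 3.77-fold lower (log2 change -1.91 ± 0.13, SE; edgeR adjusted p 1.43e-15) with LPS. The fall was 2.31-fold (edgeR adjusted p 5.59e-10) with cell extract and 2.02-fold (edgeR adjusted p 1.16e-08) with LPS at 8 h, and 3.87-fold (edgeR adjusted p 9.65e-15) with LPS at 72 h. The cell extract call at 72 h (-0.55 log2, edgeR adjusted p 0.00481) ended with no filter on low counts or without the Lars2-rich libraries (adjusted p 0.0592 to 0.298). With IL-4 at 72 h the cultures held 3270.3, 2473 and 3159.7 CPM against 1759.8, 1572 and 1506 in control, a rise of 1.84-fold (edgeR adjusted p 1.99e-05). The IL-4 rise at 24 h (1.43-fold, edgeR adjusted p 0.00565) ended in a fit restricted to the groups compared or with no filter on low counts (adjusted p 0.0554 to 0.184). Atp6v1a, the catalytic A subunit, fell with cell extract (1.63-fold, edgeR adjusted p 7.14e-04 at 8 h, 1.69-fold, edgeR adjusted p 0.00127 at 24 h) and with LPS (1.68-fold, edgeR adjusted p 2.19e-04, and 1.88-fold, edgeR adjusted p 1.67e-05). Atp6v1h, a regulatory subunit of the cytosolic sector, rose with both at 8 h, where cultures held 608, 615, 603 and 573 CPM with cell extract and 633, 538, 609 and 715 with LPS against 390.1, 392, 386 and 464 in control. The stimulated cultures lay above all controls, and Atp6v1h was 1.47-fold higher (edgeR adjusted p 0.00933) and 1.53-fold higher (edgeR adjusted p 0.00245). Atp6ap1, an accessory protein of the pump, had no call with cell extract or IL-4.

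Of the MiT factors, Tfeb RNA fell with cell extract and with LPS. Control cultures at 8 h held 58, 32.7, 42.8 and 48.2 CPM of Tfeb, cell extract cultures 21.7, 14.3, 14.4 and 18.6 and LPS cultures 11.5, 8.64, 8.94 and 13.3. At 24 h control cultures held 52.6, 38.4, 39.2 and 43.6, cell extract cultures 16.2, 19.5 and 16.9 and LPS cultures 24.3, 13.9, 15.7 and 17.4. No stimulated culture reached the lowest control at either time. With cell extract Tfeb was 2.63-fold lower (log2 change -1.39 ± 0.21, SE; edgeR adjusted p 1.09e-06) at 8 h and 2.46-fold lower (edgeR adjusted p 1.91e-05) at 24 h. With LPS it was 4.35-fold lower (log2 change -2.12 ± 0.23, SE; edgeR adjusted p 2.07e-10) at 8 h, 2.48-fold lower (edgeR adjusted p 2.40e-06) at 24 h and 2.62-fold lower (edgeR adjusted p 6.01e-05) at 72 h. The extract call at 72 h (-0.85 log2, edgeR adjusted p 0.0162) ended without the Lars2-rich libraries or without cell extract 72 h replicate 4 or control 72 h replicate 3 or 4 (adjusted p 0.074 to 0.128). Tfe3, which shares many targets with Tfeb, was called against control in 1 comparison. Its level was 58.1, 58.6, 51.8 and 53.3 CPM in control at 8 h, 66.2, 66.1, 55 and 69.9 with cell extract and 45.7, 39.9, 42.3 and 44.4 with LPS. The LPS cultures lay below all controls (log2 -0.37, edgeR adjusted p 0.0058), a call that ended with no filter on low counts (adjusted p 0.0531). Mitf, the founding member of the family, held 91.4, 114, 114 and 88.2 CPM in control at 8 h, 138, 122, 149.6 and 167 with cell extract and 132, 149, 159 and 99.9 with LPS. The extract rise of 1.42-fold (edgeR adjusted p 0.0161) ended without cell extract 8 h replicate 4 or control 8 h replicate 1 or 4 (adjusted p 0.0526 to 0.0697). At 72 h with IL-4 it was 150.2, 169 and 146 against 127, 82.1 and 84 CPM, 1.58-fold higher (edgeR adjusted p 0.0104), which ended without the Lars2-rich libraries or without control 72 h replicate 3 or 4 (adjusted p 0.059 to 0.102). None of the Mitf calls against control held under every alternative.

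Gpnmb, a MiT target in macrophages, held 21015, 24892, 19357 and 20024 CPM in control at 24 h, 11435, 10995 and 9960.1 with cell extract and 10419, 11067, 10938 and 9741 with LPS. All stimulated cultures lay below control, and Gpnmb was 1.97-fold lower (edgeR adjusted p 8.29e-05) and 2.02-fold lower (edgeR adjusted p 5.65e-06). With cell extract it was also 1.64-fold lower (edgeR adjusted p 0.00115) at 8 h. At 72 h the cultures held 9738, 13664 and 13301 in control, 16498, 14510.1 and 16654 with cell extract and 2963, 5653, 6710.0 and 6100.5 with LPS, which left the LPS cultures 2.28-fold lower (edgeR adjusted p 1.38e-06) and the extract cultures not called (log2 0.38 ± 0.20, SE; edgeR adjusted p 0.16).

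**Figure D3:**
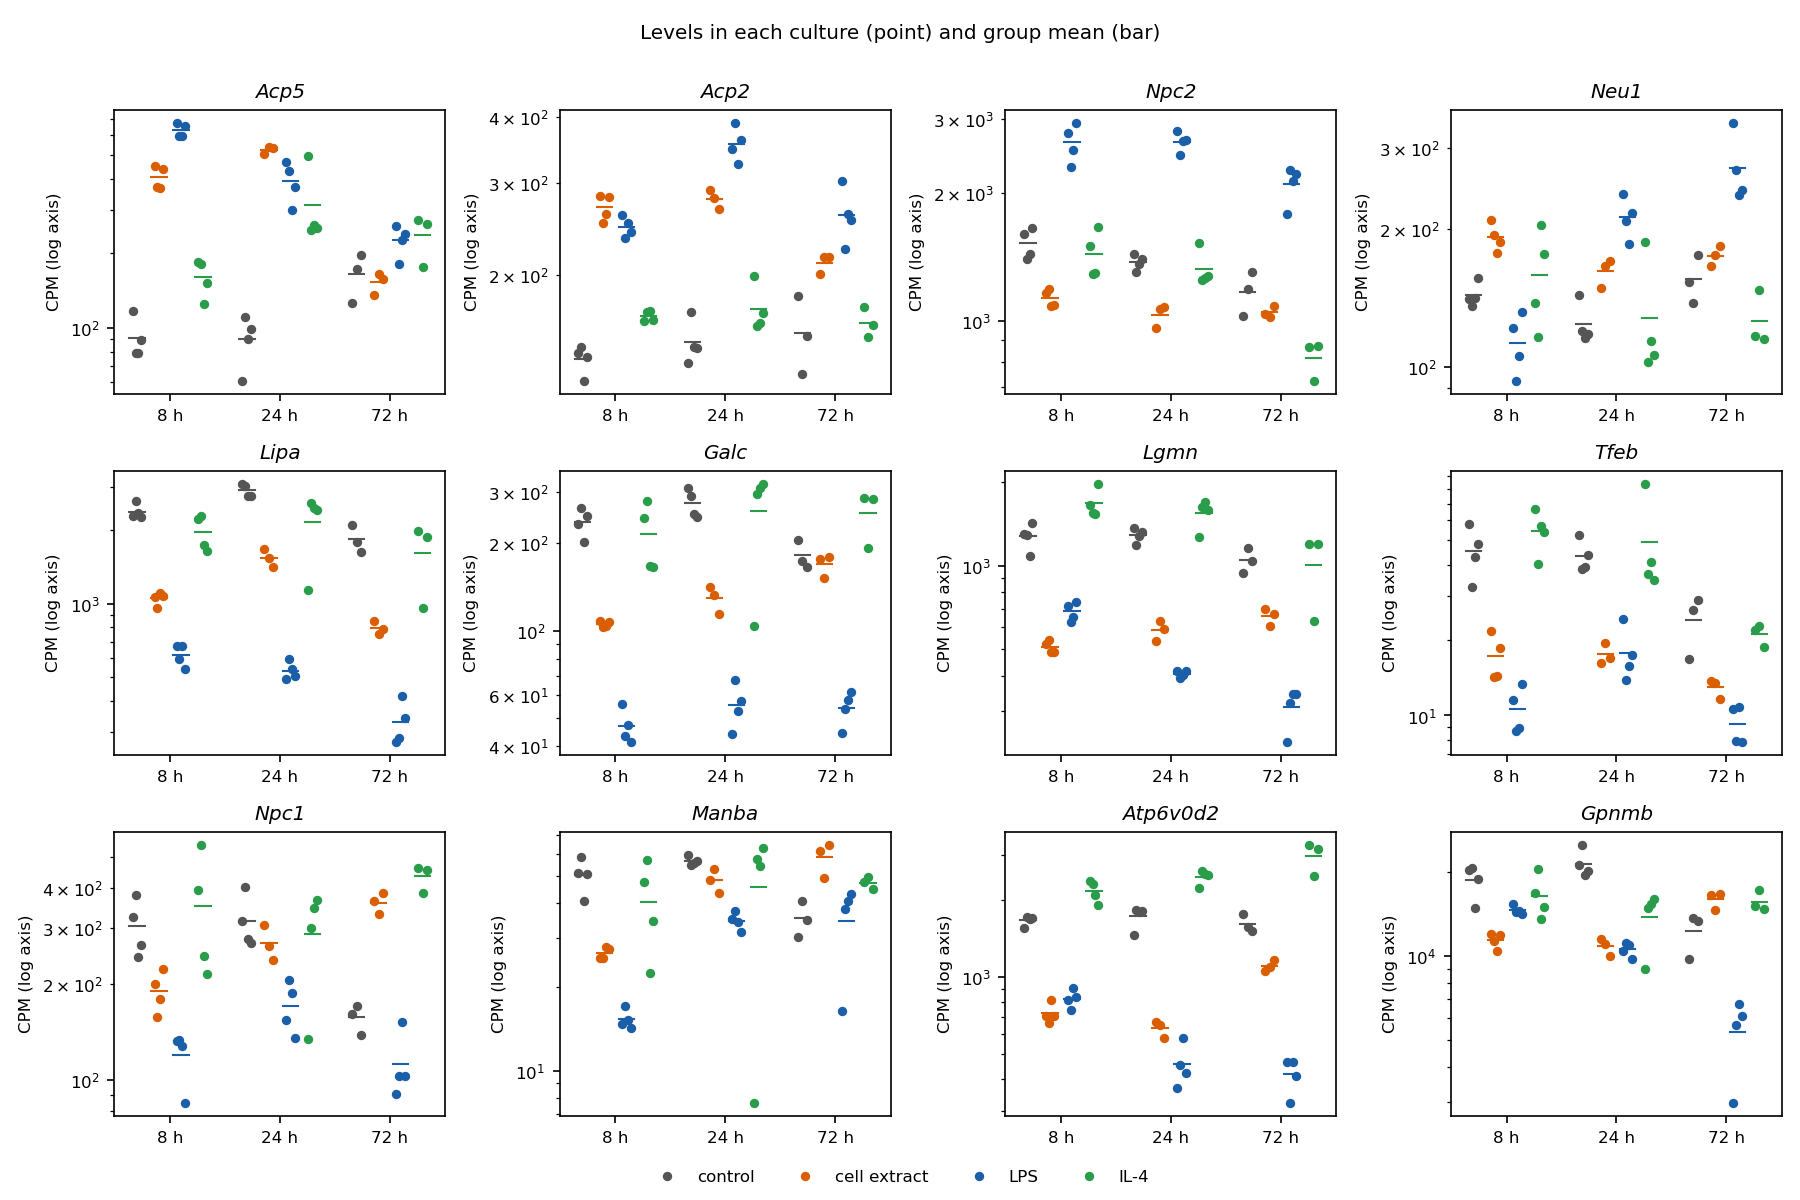
CPM of 12 genes (log axis) in each culture at 8, 24 and 72 h, coloured by stimulus, with a bar at each group mean. Acp5 and Acp2 lie above control with cell extract and LPS at 8 and 24 h, while Galc, Lipa, Lgmn, Tfeb and Atp6v0d2 lie below it, lowest with LPS in Galc and Lipa.

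Between 8 and 72 h the cell extract effect moved upward for many lysosomal genes. Tested as the effect at 72 h minus the effect at 8 h, 18 of the 43 rose and 3 fell for cell extract (13.1% and 8.75% of all genes; medians 0.54 and 0.07). For LPS 7 rose and 9 fell (15.7% and 14.3%; medians 0.05 and 0.06), and for IL-4 5 rose and 2 fell (9.51% and 6.57%; medians 0.08 and 0.05). With RLE size factors, under which the median of all genes shifted by -0.13 for cell extract and -0.15 for IL-4, 15 rose and 5 fell for cell extract, 5 and 11 for LPS and 3 and 5 for IL-4. With no filter on low counts 10 were called for LPS, and without the Lars2-rich libraries 4 for IL-4. The largest upward extract differences were those of Npc1 (log2 1.87 ± 0.36, SE; edgeR adjusted p 1.69e-04), Manba (log2 1.68 ± 0.37, SE; edgeR adjusted p 8.43e-04) and Gla (log2 1.41 ± 0.24, SE; edgeR adjusted p 3.26e-05), each below control at 8 h and above it at 72 h. Glb1 (log2 1.08 ± 0.18, SE; edgeR adjusted p 2.56e-05), Scarb2 (log2 1.02 ± 0.18, SE; edgeR adjusted p 5.63e-05) and Ppt1 (log2 0.92 ± 0.14, SE; edgeR adjusted p 4.38e-06) had the same signs. Acp5 went the other way (log2 -2.27 ± 0.30, SE; edgeR adjusted p 3.53e-07), as did Dnase2a (log2 -1.07 ± 0.27, SE; edgeR adjusted p 0.0031). For LPS, Manba (log2 1.78 ± 0.37, SE; edgeR adjusted p 2.30e-04), Ppt1 (log2 1.06 ± 0.14, SE; edgeR adjusted p 7.19e-08) and Neu1 (log2 1.14 ± 0.23, SE; edgeR adjusted p 1.66e-04) moved upward and Acp5 (log2 -2.34 ± 0.29, SE; edgeR adjusted p 2.94e-08), Cd63 (log2 -1.15 ± 0.25, SE; edgeR adjusted p 3.73e-04) and Atp6v0d2 (log2 -0.94 ± 0.19, SE; edgeR adjusted p 1.20e-04) downward. Whether the extract and LPS differences themselves differ was not tested.

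The control cultures that enter these differences also changed with time. In control 1 member rose and 15 fell from 8 to 72 h (6.38% and 7.16% of all genes; medians -0.33 and -0.05). Acp5 rose (1.81-fold higher, edgeR adjusted p 0.00487), and Mcoln1 (1.83-fold lower, edgeR adjusted p 0.00111), Grn (1.8-fold lower, edgeR adjusted p 1.29e-04), Hexa (1.76-fold lower, edgeR adjusted p 5.15e-04) and Glb1 (1.55-fold lower, edgeR adjusted p 9.76e-04) were the falls that held under every alternative. Without control 72 h replicate 1 the 16 calls came to 7, without control 8 h replicate 1 or 2 the count was 10, and in a fit restricted to the groups compared to 6. Summed levels of markers of other cells differed between the groups at each time. Summed over 7 mesothelial markers, control at 72 h held 55.1 to 77.4 CPM, against 9.17 to 15.5 in control at 8 h and 1.13 to 2.99, 1.93 to 4.58 and 3.7 to 13.2 with cell extract, LPS and IL-4 at 72 h. At 24 h, beside the falls with both stimuli, the mesothelial sum was 17.9 to 18.8 CPM in control, 4.93 to 5.21 with cell extract and 2.52 to 5.97 with LPS. Summed over 6 fibroblast markers the ranges were 487 to 1090.2, 141 to 159.5, 196 to 230.2, 158 to 291 and 89.9 to 204 in the same order. The 6 macrophage markers summed to 9612 to 17504, 13531 to 14817, 26246 to 30329.9, 10765 to 20126 and 11112 to 17027. At 24 h the macrophage sum was 8863 to 14378 CPM in control, 18766 to 19268 with cell extract and 7801 to 8679 with LPS. All cell extract sums lay above the controls and all LPS sums below them. Lyz2 made up most of this sum, with a median of 10238 CPM over all libraries. The median was 1267 CPM for Cd68 and 76.6 to 331 for the others, whose levels by group are not given here. The 4 neutrophil markers summed to 32.7 to 45.4 CPM in control at 8 h, 99.3 to 136 with cell extract and 78.8 to 108 with LPS. At 24 h the sums were 20.3 to 35.8, 124 to 170.2 and 55.9 to 65.4 in the same order, so both stimuli lay above control at both times. These sums were mostly S100a8, since Ly6g, S100a9 and Cxcr2 reached at most 1.16, 1.07 and 4.98 CPM in any library. At 72 h the sum was 293 to 518 with LPS, nearly all of it S100a8, against 43 to 58.3 in control and 31.4 to 41.2 with cell extract, while Ly6g was at 0 in 32 of the 44 libraries and S100a9 in 20. The 4 eosinophil markers, of which Siglecf is also known from some macrophages, summed to 5.78 to 9.17 CPM in control at 24 h against 0.739 to 1.72 with cell extract and 1.12 to 1.94 with LPS, while Epx was at 0 in 40 libraries and Prg2 in 38. Of the mesothelial list, Msln was at 0 in 8 libraries and Krt19 in 7, and of the fibroblast list Lum was at 0 in 8. The highest level of a mesothelial marker in any library was 52.4 CPM for Upk3b, against 16.7 for Wt1 and 1.07 for Msln. The part of these cells in the results was not tested.

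**Figure D4:**
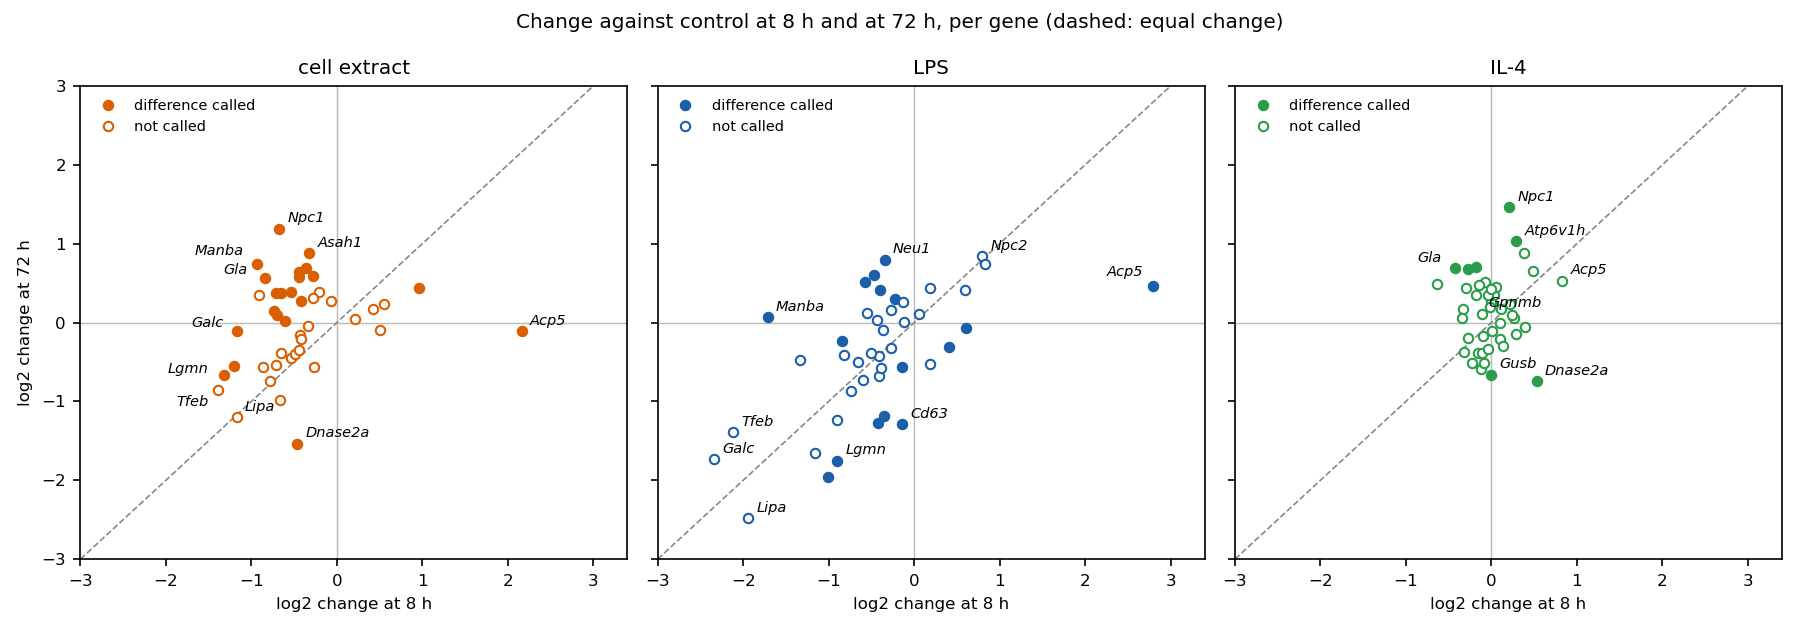
Log2 change against control at 8 h (horizontal) and at 72 h (vertical) for each of the 43 genes, 1 panel per stimulus, filled where the difference between the times was called; the dashed line marks equal change. In the cell extract panel 18 of the 21 filled points lie above the line, all of them left of 0, with Acp5 far to the right, and in the LPS panel Lipa, Galc and Tfeb stay low at both times.

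With IL-4 most calls came at 72 h. There 3 of the 10 sphingolipid genes rose, Gla among them (1.61-fold higher, edgeR adjusted p 0.00478), where 13.2% of all genes were called higher and 10.5% lower. Npc1 rose as well (434 ± 41.6 against 157 ± 16.8 CPM), and so did the pump subunits Atp6v1h (645 ± 43.6 against 315 ± 18.3, 2.05-fold higher, edgeR adjusted p 1.15e-04) and Atp6v0d2. These rises of Npc1, Atp6v1h, Atp6v0d2 and Gla were the 4 at 72 h that held under every alternative, and no fall did. Gusb (1.58-fold lower, edgeR adjusted p 8.93e-05) and Gm2a (1.5-fold lower, edgeR adjusted p 6.26e-04) fell, calls that ended with no filter on low counts (adjusted p 0.0821 and 0.137). With RLE size factors, where the median of all genes shifted by -0.11, 7 rose and 6 fell, and with DESeq2 7 rose and 7 fell. Without control 72 h replicate 4 the 14 calls came to 8. At 24 h IL-4 replicate 1, the shallowest library, held 0.908 M counts and 495 CPM of Acp5 where the others held 248, 259 and 253. Without it Acp5 was still called (log2 1.5, edgeR adjusted p 8.40e-08), as were Atp6v0d2 (log2 0.57, adjusted p 0.00402) and Fuca1 (log2 -0.51, adjusted p 0.00322). The Gpnmb fall (1.55-fold, edgeR adjusted p 0.0124) ended in a fit restricted to the groups compared, with no filter on low counts or without control 24 h replicate 2 or IL-4 24 h replicate 1 (adjusted p 0.0637 to 0.163), and Mitf came to be called without that culture (log2 0.52, adjusted p 0.0453). At 8 h Acp5 was the 1 call with IL-4, and 8 members were called with DESeq2 and 5 with RLE size factors.

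Cell extract and LPS, compared with each other at the same time, differed in some of the genes. With cell extract 8 were higher and 8 lower than with LPS at 8 h (14.0% and 15.1% of all genes), 6 and 4 at 24 h (8.06% and 8.76%), and 15 and 2 at 72 h (11.0% and 11.4%). At 24 h 18 were called in a fit restricted to the groups compared and 6 with no filter on low counts. Galc was higher with cell extract at each time (2.25-fold, 2.32-fold and 3.09-fold; edgeR adjusted p 1.48e-05, 3.62e-05 and 3.69e-07), and so was Lipa (1.7-fold, 2.88-fold and 2.42-fold; 0.00108, 1.26e-07 and 4.43e-06). Npc2 was lower with cell extract (2.33-fold, 2.56-fold and 2.01-fold; 6.12e-12, 3.64e-11 and 3.67e-08). These 3 genes were the ones called in the same direction at all 3 times under every alternative. At 8 h cell extract was below LPS in Lamp2 (1.94-fold lower, edgeR adjusted p 2.92e-05), Scarb2 (1.79-fold lower, edgeR adjusted p 2.89e-07), Grn (1.74-fold lower, edgeR adjusted p 1.07e-05) and Gla (1.65-fold lower, edgeR adjusted p 3.51e-04), and above it in Tfe3 (1.5-fold higher, edgeR adjusted p 5.84e-05), Neu1 (1.7-fold higher, edgeR adjusted p 1.46e-04) and Dnase2a (1.62-fold higher, edgeR adjusted p 0.00194). At 72 h it was above LPS in Npc1 (3.18-fold higher, edgeR adjusted p 3.37e-06), Gpnmb (2.97-fold higher, edgeR adjusted p 2.26e-08), Atp6v0d2 (2.65-fold higher, edgeR adjusted p 3.38e-10), Lgmn (2.12-fold higher, edgeR adjusted p 1.07e-06), Lamp1 (1.78-fold higher, edgeR adjusted p 8.21e-07) and Psap (1.76-fold higher, edgeR adjusted p 3.54e-06).

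Between the classical and the alternative stimulus the gap was wide at each time. With LPS 5 genes were higher and 21 lower than with IL-4 at 8 h (20.8% and 21.8% of all genes; medians -0.36 and 0.01), 5 and 21 at 24 h (18.1% and 18.1%; medians -0.39 and -0.04), and 4 and 21 at 72 h (18.7% and 20.4%; medians -0.37 and 0.05). Without IL-4 24 h replicate 1 the split at 24 h was 7 and 23. The widest gap at 24 and 72 h was that of Atp6v0d2, which LPS held 2.63-fold, 5.37-fold and 7.13-fold below IL-4 at 8, 24 and 72 h (edgeR adjusted p 5.51e-12, 2.47e-18 and 2.80e-19). At 72 h LPS cultures held 467, 321, 468 and 412 CPM and IL-4 cultures 3270.3, 2473 and 3159.7. Lipa was 3.18-fold, 4.04-fold and 4.87-fold lower with LPS, Galc 4.59-fold, 4.68-fold and 4.63-fold, Lgmn 2.45-fold, 3.79-fold and 3.25-fold, and Tfeb 5.3-fold, 2.59-fold and 2.37-fold, all with an edgeR adjusted p of 7.53e-05 or smaller. Npc2 was 1.83-fold, 2.0-fold and 2.57-fold higher with LPS, and Neu1 was 2.14-fold higher (edgeR adjusted p 1.72e-06) at 72 h. The 24 h folds include IL-4 replicate 1, which was low in Lipa and Galc and high in Tfeb and Npc2. Its Tfeb was 83.9 CPM against 34.9 to 40.8 in the other IL-4 cultures. The 24 h calls of Lipa, Galc, Tfeb and Npc2 held under every alternative.

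Other genes of the same machinery were counted from lists. The shares of all genes called higher and lower were 13.0% and 17.2% with cell extract and 21.3% and 24.1% with LPS at 8 h, 11.7% and 10.4% and 18.6% and 19.3% at 24 h, and 14.2% and 12.2% with cell extract at 72 h. Of 28 other hydrolases and transporters, 3 rose and 14 fell with cell extract at 8 h and 4 and 13 with LPS (median log2 -0.50 and -0.36), and at 72 h with cell extract 9 rose and 2 fell (median 0.33). The sulfamidase Sgsh (1.99 against 14.6 CPM, 7.56-fold lower, edgeR adjusted p 4.96e-15) and the sialic acid exporter Slc17a5 (26.8 against 81.6 CPM, 3.04-fold lower, edgeR adjusted p 1.36e-14) had the smallest p of this list, both with LPS at 8 h. Of 14 other V-ATPase subunits, 3 rose and 4 fell with LPS at 24 h, among them Atp6v0a1 (47.5 against 309.7 CPM, 6.51-fold lower, edgeR adjusted p 1.13e-16), and 5 rose and 3 fell at 8 h, where the cytosolic subunit Atp6v1c1 fell (319 against 799.9 CPM, 2.5-fold lower, edgeR adjusted p 1.94e-11). Among 19 genes of MiT control, Tfec included, 1 rose and 7 fell with cell extract at 8 h and 3 and 9 with LPS. Rragd, a Rag GTPase of the mTORC1 platform, fell with LPS at 8 h (9.1 against 65.6 CPM, 7.2-fold lower, edgeR adjusted p 8.27e-22), and Tfec, the fourth MiT family member, rose with cell extract at 8 h (89.4 against 18.4 CPM, 4.87-fold higher, edgeR adjusted p 1.34e-13). Of 19 autophagy genes 1 rose and 7 fell with cell extract at 8 h, and 3 and 10 with LPS. The cargo receptor Sqstm1 was the rise with cell extract (1933 against 569 CPM, 3.4-fold higher, edgeR adjusted p 9.91e-10), and Atg7, which conjugates Atg8 proteins, fell with LPS (28.9 against 87.4 CPM, 3.05-fold lower, edgeR adjusted p 7.42e-11). Of 11 genes of mannose 6-phosphate and related sorting, 1 rose and 4 fell with LPS at 24 h, with sortilin (Sort1) the strongest (10.9 against 138 CPM, 12.4-fold lower, edgeR adjusted p 1.10e-15), and Gga2, a sorting adaptor, fell with LPS at 8 h (26.1 against 68.3 CPM, 2.62-fold lower, edgeR adjusted p 2.87e-13). Of 13 tested osteoclast and fusion genes, a programme that shares Acp5 and Atp6v0d2, 4 rose and 3 fell with cell extract at 24 h, where Mmp9 rose (112 against 7.34 CPM, 15.1-fold higher, edgeR adjusted p 1.58e-18), and 6 and 5 with LPS, where Itgb3 fell (3.75 against 45.3 CPM, 11.7-fold lower, edgeR adjusted p 1.03e-17).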

How the data were processed

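RNA was measured with a Diagenode CATS mRNA-seq kit on polyadenylated RNA and sequenced single-end at 50 bp. The authors deposited 1 column of gene counts per library; the submitters' processing notes list cutadapt, Bowtie2, TopHat2 2.1.1, HTSeq, DESeq and edgeR and the mm10 build, without their roles or order. Per the authors' deposited trimming script, 3 bases were cut from each read and reads under 18 nt dropped. Whether counting used strand, and which annotation it used, is not given in the sources used here, so reads of antisense or overlapping genes may be shared. The table has 46078 genes and 5 summary entries, which stayed out of library sizes and tests. Among them, reads ambiguous between genes came to 5.39% of gene-assigned plus ambiguous reads, and alignments that were not unique to 41.7 to 92.8 per 100 gene counts.

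Genes with a minimum count of 10 (filterByExpr) were kept (14537). Counts of all 44 libraries and 12 groups were fitted together with edgeR 4.0.16 (R 4.3.3; TMM scaling, quasi-likelihood F-test, 1 coefficient per group, prior count 0.125, 32 residual degrees of freedom), and p-values were Benjamini-Hochberg adjusted over all genes. SE is the log2 change divided by the square root of F. Exon lengths and positions came from GENCODE M21, and promoter windows from RefSeq (GRCm38.p6).

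Per-culture values are printed for up to 3 called genes of largest change per direction in each comparison with control and always for Lamp1, Tfeb, Tfe3, Mitf, Gpnmb, Acp5 and Atp6v0d2; up to 2 genes of smallest p are named per list. The genes and lists were chosen with earlier results of these data known.

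No 2 libraries of the same group agreed within sampling noise. Replicate numbers recur between groups. Deviations from the group means of same-numbered cultures correlated over 0.1 in every pair for 4 comparisons with control. Those of cell extract at 8 h, LPS at 8 h and LPS at 24 h have 4 pairs each and were taken as paired, and that of cell extract at 72 h has 2 pairs (0.249 and 0.284), fewer than the 3 set as a minimum. The main fit holds no replicate block, so the p-values above ignore this pairing, and the block enters only as an alternative. Over 16 comparisons 37 of 54 pairs did so (from -0.148 to 0.603). Alternatives were RLE size factors, no filter, DESeq2 1.42.0, the compared groups alone, a replicate block, each culture left out, and, chosen after seeing the data, leaving out the 7 libraries with over 10000 CPM of Lars2.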

Additional observations from a re-analysis of the deposited data

Results flagged for a closer look

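Single cultures that stood far from the rest of their group were sought in 176 groups of 4 over the members with per-culture values, and 17 were found; chance alone flags about 1 in 20 groups. Of the 17, 9 came from 1 library, IL-4 at 24 h replicate 1, which had 0.908 M counts where the other 3 had 7.67 to 25.1 M. It was low in Galc (103 against 297 to 321 CPM in the other cultures), Lipa (1135 against 2423 to 2583 CPM), Manba (7.63 against 54.2 to 62.7 CPM) and Gpnmb (8966 against 14815 to 15971 CPM). It was high in Neu1 (187 against 102 to 114 CPM), Npc2 (1528 against 1247 to 1274 CPM), Acp5 (495 against 248 to 259 CPM), Dnase2a (402 against 258 to 279 CPM) and Tfeb (83.9 against 34.9 to 40.8 CPM). Its Nos2 (9.8 CPM) and Arg1 (1626 CPM) were close to those of the other cultures (7.21 to 9.6 and 1398 to 1503).

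The other 8 were spread over 4 groups. Lamp1 was low in control at 8 h replicate 3 (3201 against 3563 to 3595 CPM) and in LPS at 72 h replicate 1 (1506 against 2039 to 2103 CPM). Among control cultures at 24 h, replicate 1 was high in Neu1 (143 against 116 to 119.8 CPM) and low in Atp6v0d2 (1459.8 against 1792 to 1821 CPM), and replicate 2 was high in Mitf (108.7 against 104.7 to 105.3 CPM). Npc1 was low in LPS at 8 h replicate 4 (84.7 against 128 to 134 CPM), Man2b1 high in LPS at 72 h replicate 3 (167 against 119.9 to 127 CPM) and Atp6v1h high in control at 8 h replicate 4 (464 against 386 to 392 CPM).

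The effect of a stimulus differed between 72 and 8 h in 44 cases, each tested with edgeR as the difference of the 2 effects on the log2 scale. Under every alternative 11 upward and 2 downward differences held for cell extract, 5 and 3 for LPS and 2 and 1 for IL-4. For cell extract these were Lamp2, Scarb2, Gla, Glb1, Asah1, Npc1, Idua, Manba, Ppt1, Grn, Gpnmb, Acp5 and Dnase2a. For LPS they were Cd63, Neu1, Idua, Gaa, Manba, Ppt1, Acp5 and Atp6v0d2, and for IL-4 Gla, Npc1 and Dnase2a. The others ended under at least 1 alternative. For cell extract the effect moved upward in the membrane proteins Lamp1 0.69 (adjusted p 0.00222), Lamp2 1.04 (adjusted p 0.00367) and Scarb2 1.02 (adjusted p 5.63e-05). Among sphingolipid genes it did so in Gla 1.41 (adjusted p 3.26e-05), Glb1 1.08 (adjusted p 2.56e-05), Hexa 0.63 (adjusted p 0.0406), Psap 0.79 (adjusted p 9.88e-04), Asah1 1.20 (adjusted p 0.00433) and Galc 1.06 (adjusted p 0.00965). Upward differences were also called for Npc1 1.87 (adjusted p 1.69e-04), Idua 1.02 (adjusted p 9.15e-04), Gaa 0.87 (adjusted p 0.0266), Manba 1.68 (adjusted p 8.43e-04), Ppt1 0.92 (adjusted p 4.38e-06), Lgmn 0.66 (adjusted p 0.0271) and Grn 0.89 (adjusted p 0.00176), and for Atp6v0d2 0.66 (adjusted p 0.0116) and Gpnmb 1.09 (adjusted p 0.00211). Downward differences were those of Acp2 -0.52 (adjusted p 0.016), Acp5 -2.27 (adjusted p 3.53e-07) and Dnase2a -1.07 (adjusted p 0.0031).

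For LPS the difference was upward in Glb1 0.52 (adjusted p 0.0235), Smpd1 0.61 (adjusted p 0.044), Neu1 1.14 (adjusted p 1.66e-04), Idua 0.81 (adjusted p 0.00449), Gaa 1.08 (adjusted p 0.00295), Manba 1.78 (adjusted p 2.30e-04) and Ppt1 1.06 (adjusted p 7.19e-08). It was downward in Lamp1 -0.42 (adjusted p 0.0442), Cd63 -1.15 (adjusted p 3.73e-04), Man2b1 -0.85 (adjusted p 0.0103), Lgmn -0.85 (adjusted p 0.0017) and Acp5 -2.34 (adjusted p 2.94e-08), and in Atp6v0d2 -0.94 (adjusted p 1.20e-04), Atp6v1h -0.68 (adjusted p 0.033), Mitf -0.72 (adjusted p 0.0214) and Gpnmb -0.84 (adjusted p 0.0090). For IL-4 it was upward in Lamp2 0.94 (adjusted p 0.0129), Gla 1.12 (adjusted p 0.00133), Asah1 0.88 (adjusted p 0.0483), Npc1 1.25 (adjusted p 0.0142) and Atp6v1h 0.75 (adjusted p 0.0408) and downward in Gusb -0.66 (adjusted p 0.00465) and Dnase2a -1.27 (adjusted p 0.0011).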

How the results depend on the processing

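No call turned to the opposite direction under any alternative in these 19 comparisons. Of 817 results (43 genes in 19 comparisons), 769 kept their side of the threshold with RLE size factors, 725 with no filter on low counts, 797 with the replicate block, 763 with DESeq2, 740 with the groups compared fitted alone, and 750 without the Lars2-rich libraries; leaving out each culture in turn gave 6503 of 6923. The number of genes called moved by over 1.5 times in these cases. For IL-4 at 8 h (1) it was 5 with RLE size factors, 8 with DESeq2 and 2 with the replicate block. For IL-4 at 24 h (4) it was 1 with no filter and 1 with the groups compared fitted alone. For cell extract at 72 h (22) it was 13 with no filter and 9 without the Lars2-rich libraries, for cell extract against LPS at 24 h (10) 6 with no filter and 18 with the groups alone, for control over time (16) 6 with the groups alone, for the LPS difference between times (16) 10 with no filter, and for the IL-4 difference (7) 4 without the Lars2-rich libraries. The cause of these moves was not tested.

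Leaving out 1 culture gave these lowest and highest counts. At 8 h they were 27 and 32 for cell extract (33), 24 and 33 for LPS (30) and 1 and 3 for IL-4 (1; without IL-4 replicate 1, 2 or 4 it moved by over 1.5 times). At 24 h they were 18 and 23 for cell extract (23), 26 and 28 for LPS (28) and 2 and 4 for IL-4 (4; 2 without control replicate 2). At 72 h they were 15 and 18 for cell extract (22), 20 and 24 for LPS (22) and 8 and 13 for IL-4 (14; 8 without control replicate 4). For control over time they were 7 and 16 (16; over 1.5 times lower without control 8 h replicate 1 or 2 or control 72 h replicate 1), and for the differences between times 17 and 24 for cell extract (21), 12 and 16 for LPS (16) and 5 and 10 for IL-4 (7).

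The split of rises and falls depended on the scaling where the median of all genes moved. With DESeq2 it was 6 and 2 for IL-4 at 8 h, 7 and 7 for IL-4 at 72 h (main 9 and 5), 15 and 5 for cell extract against LPS at 72 h (15 and 2), and for the differences between times 16 and 5 for cell extract, 6 and 12 for LPS and 5 and 5 for IL-4. With RLE size factors it was 2 and 1 for IL-4 at 24 h (2 and 2). In the comparisons with control where the replicate numbers paired the cultures, the replicate block gave 33 calls for cell extract at 8 h, 31 for LPS at 8 h and 28 for LPS at 24 h, against 33, 30 and 28 without it. With the block Neu1 came to be called as a fall with LPS at 8 h (adjusted p 0.0394 against 0.0682). In the other comparisons the pairs did not all correlate over 0.1, except for cell extract at 72 h, which has 2 pairs, both over 0.1. The comparison of IL-4 with control at 72 h also has 2 pairs (0.0768 and -0.0178). In these other comparisons the block ended the calls of Scarb2 (adjusted p 0.0908), Manba (0.082) and Atp6v1a (0.0696) with cell extract at 72 h and of Mcoln1 (0.0695), Psap (0.0721) and Asah1 (0.0574) with IL-4 at 72 h.

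These are cultures of 1 isolate, so animals do not enter the error. The shallowest libraries, IL-4 at 24 h replicate 1 and LPS at 72 h replicate 1, limit what could be detected in their groups. The groups of lowest mean depth were control at 72 h (1.79 to 4.47 M gene counts) and IL-4 at 8 h (1.5 to 6.46 M), which limits their comparisons too. RNA levels say nothing of protein, enzyme activity or the location of the MiT factors.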
